A study of Mus musculus with 8 samples.

Results

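Retinoic acid is the active form of vitamin A, and 9 genes of its synthesis, transport, sensing and removal are described here. They were taken by name, with no filter on their values, from the 24279 genes of each comparison table, and all 9 were listed. Earlier results of these data were known when they were chosen. They are the receptor genes Rara, Rarb and Rarg, the binding protein genes Crabp1 and Crabp2, the retinol uptake gene Stra6, the synthesis gene Aldh1a2, and the genes Cyp26a1 and Dhrs3, whose enzymes remove retinoic acid or its precursor. The 8 RNA-seq libraries were of mouse embryonic stem cells, a culture derived from the early embryo with the potential to form any embryonic tissue. They fell into 4 groups of 2, and each culture had spent 6 days without LIF, the cytokine added to keep stem cells from differentiating.

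Per the labels, noDox cells lack all Argonaute genes, AGO1-4-/-. Argonautes are the proteins through which microRNAs silence their targets. DOX cells have the same knockout genotype and express only AGO2, induced with doxycycline. NLS cells have that genotype and express only NLS-AGO2, a form with a nuclear localization signal. E14 cells are the wild type. Every group, E14 and noDox included, carries the cell description of a line with doxycycline-inducible HA-Flag-AGO2 and the same protocol text of 2.5 µg/ml doxycycline daily. All were at passages 8 to 15 on 0.1% gelatin in medium with 15% heat-inactivated serum, and no added retinoid is named. Whether a line was a single clone, and whether the 2 libraries of a group came from separate cultures, is not given in the sources used here, so the spread behind the p-values may be technical.

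The tables hold 1 RPKM value per group (reads scaled to transcript length and to the size of the library), so no value per library can be shown, and the depth is unknown. The table named for DOX and the table named for E14 were identical in 24279 of 24279 lines, and their group is called DOX/E14 here. The Ago1 level was 0.0159 RPKM in noDox, against 16.7 RPKM in DOX/E14 and 0.861 RPKM in NLS. The DOX/E14 value goes against the DOX label of cells with AGO2 alone. Ago2 was at 26.1, 32.6 and 35.7 RPKM in these groups and Ago3 fell in DOX/E14 (7.56 RPKM in noDox, log2 fold −1.33) and rose in NLS (7.76 to 14.5 RPKM). Which part of each gene was deleted is not given in the sources used here, so these levels do not check the noDox label. Ddx3y, a Y-linked gene chosen after its values were seen, was listed at 0 in noDox, 11.1 RPKM in DOX/E14 and 0.311 RPKM in NLS. The DOX/E14 group thus differs from both other groups in more than Argonaute. Each table was scaled on its own, and the median ratio of noDox values, NLS table over DOX/E14 table, was 1.03. An NLS level set beside noDox and DOX/E14 levels of the other table carries this difference in scale.

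Retinol from serum enters cells, in some tissues through STRA6, and is oxidised first to retinaldehyde and then, by ALDH1A enzymes such as ALDH1A2, to retinoic acid. DHRS3 turns retinaldehyde back into retinol and CYP26A1 degrades retinoic acid, while CRABP1 and CRABP2 bind it in the cytoplasm. Retinoic acid receptors (RAR) pair with retinoid X receptors (RXR) on DNA, holding corepressors without the ligand and coactivators with it. Retinoic acid drives embryonic stem cells out of pluripotency, and Rarb and Cyp26a1 are classic direct targets with a receptor element in their promoters.

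The promoters of these classic targets are shown because, among the members, only their windows matched the element described next. It is the DR5 retinoic acid response element, here a pair of half-sites in the same orientation with 5 bases between them. A half-site could read AGGTCA, or be a variant with an inner base changed, as in AGTTCA, with the first base changed, as in GGGTCA, or with both, as in GGTTCA. It was searched on both strands of windows from 250 bases before to 50 bases after a transcription start. The windows below run 5′ to 3′ on the gene's strand (RefSeq, GRCm38.p6), with the element in capitals.
Rarb (chr14:16575427-16575726, minus strand): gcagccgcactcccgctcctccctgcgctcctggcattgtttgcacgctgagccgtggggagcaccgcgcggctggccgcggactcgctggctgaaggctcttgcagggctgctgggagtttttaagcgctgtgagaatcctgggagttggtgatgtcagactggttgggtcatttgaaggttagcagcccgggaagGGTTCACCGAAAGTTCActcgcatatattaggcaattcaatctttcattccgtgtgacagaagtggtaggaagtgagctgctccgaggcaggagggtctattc
Cyp26a1 (chr19:37697558-37697857, plus strand): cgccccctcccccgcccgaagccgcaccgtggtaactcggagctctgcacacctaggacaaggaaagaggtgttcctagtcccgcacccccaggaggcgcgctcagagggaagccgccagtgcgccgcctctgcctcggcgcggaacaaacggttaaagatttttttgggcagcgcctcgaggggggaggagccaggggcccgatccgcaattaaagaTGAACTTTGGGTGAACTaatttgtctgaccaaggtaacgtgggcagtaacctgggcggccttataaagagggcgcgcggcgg
The Rarb element read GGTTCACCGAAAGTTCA on the gene's strand and began 53 bases before the start. The Cyp26a1 element read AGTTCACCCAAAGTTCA on the opposite strand, and its near end lay 16 bases before the start. A DR5 element was found in the windows of 31 of 27025 genes (0.115%), among them 2 of the 8 members with a window, Rarb and Cyp26a1. These 2 are the classic targets named above, whose receptor elements were known beforehand. Their share beside that of all genes is therefore no test of the members. None of the 8 members held the related repeats with 1 or 2 bases between the half-sites, DR1 and DR2, which 0.263% and 0.311% of all genes held. No window was listed for Crabp2. Stretches outside the windows and other half-sites were not searched, so the other members may hold an element elsewhere. A match is a stretch of letters and does not show that a receptor binds there.

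Both members with a DR5 match in a window were near silent in every group. Rarb stood at 0.405 RPKM in noDox, 0.308 RPKM in DOX/E14 and 0.459 RPKM in NLS. Cyp26a1 (gene at chr19:37697798-37701536) stood at 0.926 RPKM in noDox, 0.826 RPKM in DOX/E14 and 0.732 RPKM in NLS. The group values of each gene thus lay close together and below 1 RPKM, and neither gene was tested in either table. Of all 31 genes with the element, 12 were listed in the tables, and 10 of those were below 1 RPKM in both groups of each comparison. The other 2, Blvrb and Syndig1, were tested, in tables where 28.3% (DOX/E14) and 4.39% (NLS) of all tested genes fell. Syndig1, a gene of synapse differentiation, fell from 10.2 to 1.53 RPKM in DOX/E14 (q = 0.00017) but did not pass in NLS, at 7.42 against 10.4 RPKM (q = 0.355 by the authors' deposited tables). Blvrb, a biliverdin reductase gene, fell from 47.6 to 19.0 RPKM in DOX/E14 (q = 0.00017) and from 48.9 to 17.7 RPKM in NLS (q = 0.00191 by the authors' deposited tables).

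The seeds of 3 microRNA families are shown because the study concerns Argonaute. A seed is bases 2 to 8 of the microRNA, in capitals, and pairs with the target transcript.
mmu-miR-294-3p: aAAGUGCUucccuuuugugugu
mmu-miR-20a-5p: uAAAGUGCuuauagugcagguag
mmu-let-7g-5p: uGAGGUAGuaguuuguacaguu
These seeds are shared by 5, 7 and 11 listed microRNAs (RefSeq, GRCm38.p6) and pair with AGCACTT (the miR-294 seed), with GCACTTT (the miR-20a seed) and with CTACCTC (the let-7 seed). Among 20641 annotated 3′ untranslated regions (GENCODE M21, the coding transcript with the longest coding part per gene), 13.2%, 10.9% and 7.99% held the match. Of the 9 members, 0 held any of the 3. Their regions were 185 (Cyp26a1) to 1305 bases (Rara) long, against a median of 800 bases over all genes. Other sites and other transcripts were not searched.

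**Figure D1:**
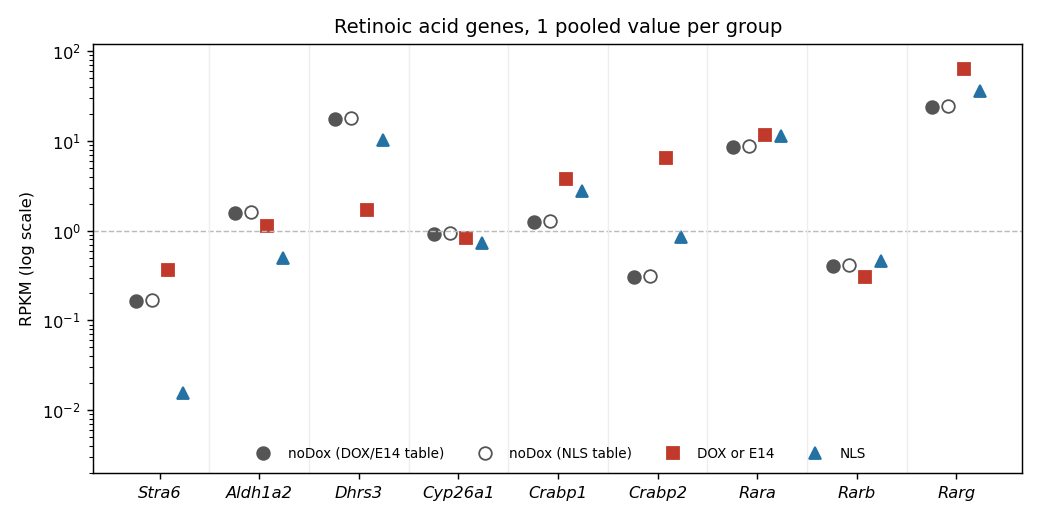
RPKM of the 9 genes on a log axis, as 1 pooled value per group, with the noDox value of each table shown. Rarg was the highest member in every group, Dhrs3 stood below noDox in DOX/E14, and Rarb, Cyp26a1 and Stra6 stayed below the dashed line at 1 RPKM.

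The receptor genes were led by Rarg, which encodes a retinoic acid receptor of the early embryo (chr15:102234938-102257517, minus strand; GENCODE M21, GRCm38, as for all gene positions here). Rarg stood at 23.7 RPKM in noDox and 62.9 RPKM in DOX/E14, and in the NLS table at 24.4 RPKM in noDox and 35.9 RPKM in NLS. It was the highest of the 9 members in every group and higher in both other groups than in noDox. Rarg rose in DOX/E14 by a log2 fold of 1.41 (SE 0.26, q = 0.00017 by the authors' deposited table, which holds no lower q). In NLS the log2 fold of 0.56 (SE 0.32) did not pass (q = 0.104 by the authors' deposited table). The SE here and below is the log2 fold divided by the deposited test statistic, and a gene counts as changed at q < 0.05. The difference between these folds, NLS minus DOX/E14, was −0.85 (95% interval −1.65 to −0.04). No exact test can be made from 1 value per group, so such differences were tested with a two-sided normal approximation (z) on the SEs that the authors' deposited tables give. That of Rarg did not pass after adjustment over 11905 genes (adjusted p = 0.172 with the SEs of the authors' tables).

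Rara, the broadly expressed receptor gene (chr11:98927818-98974942, plus strand), stood at 8.48 RPKM in noDox, 11.7 RPKM in DOX/E14 and 11.5 RPKM in NLS. The DOX/E14 log2 fold of 0.46 (SE 0.30) just missed the threshold (q = 0.0518 by the authors' deposited table). The NLS log2 fold was 0.40 (SE 0.37, q = 0.387 in the same authors' deposited tables). The NLS minus DOX/E14 difference was −0.06 (95% interval −0.99 to 0.87, adjusted p = 0.965 with the SEs of the authors' tables), an interval that leaves room for a change of nearly 1 log2 unit either way. Rarb (chr14:16430839-16819156, minus strand) shares exon bases with Top2b on the opposite strand, and the use of strand in counting is not given in the sources used here, so part of its low value could be reads of Top2b, which stood at 13.4 RPKM in noDox.

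Because RPKM is scaled to length, receptor levels can be set side by side. The summed level of Rara, Rarb and Rarg was 32.6 RPKM in noDox and 74.9 RPKM in DOX/E14. In the NLS table it was 33.5 RPKM in noDox and 47.9 RPKM in NLS. Rarg made up 72.8% of the noDox sum, 84.0% of the DOX/E14 sum and 75.1% of the NLS sum. The summed RXR level differed less, from 30.2 to 34.6 RPKM in DOX/E14 and from 31.0 to 32.1 RPKM in NLS, while single members differed more in DOX/E14. Rxra fell from 12.5 to 5.75 RPKM (log2 fold −1.12, SE 0.29, q = 0.00017 by the authors' deposited table). Rxrb rose from 17.3 to 26.7 RPKM (log2 fold 0.63, SE 0.28, q = 0.00421 by the authors' deposited table), a call that ends with p from the test statistic. Rxrg rose from 0.385 to 2.12 RPKM (log2 fold 2.46, SE 0.82, q = 0.0108 by the authors' deposited table). In NLS, Rxra at 9.69 RPKM and Rxrb at 21.8 RPKM did not pass, and Rxrg at 0.615 RPKM was not tested.

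**Figure D2:**
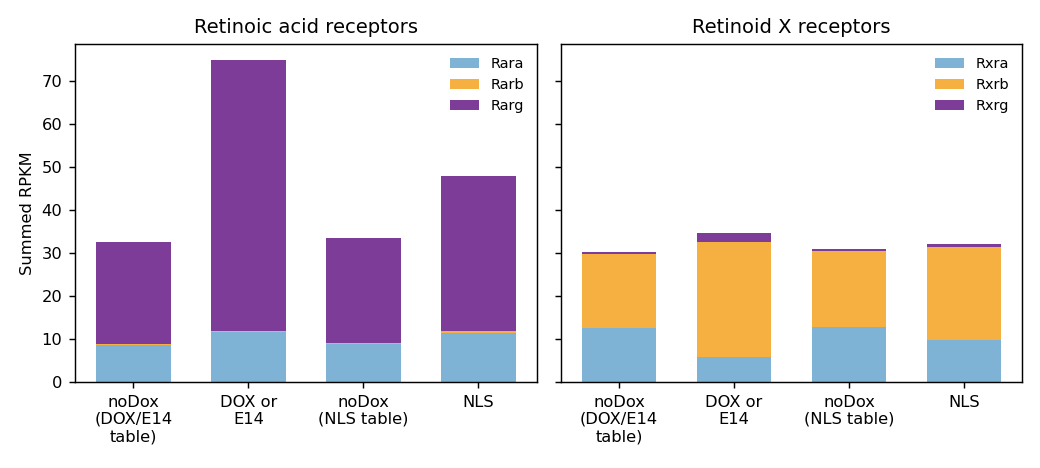
Summed RPKM of the retinoic acid receptor genes and the retinoid X receptor genes in each group, with 1 stacked bar per group of each table. Rarg fills most of every bar on the left, and the Rxra part is smallest in DOX/E14.

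The binding protein genes were low in noDox and higher in the other groups. Crabp1 (chr9:54764748-54773110, plus strand), whose product binds retinoic acid and promotes its breakdown, stood at 1.25 RPKM in noDox and 3.77 RPKM in DOX/E14, and in the NLS table at 1.29 and 2.74 RPKM. It rose in DOX/E14 (log2 fold 1.59, SE 0.93, q = 0.0330 by the authors' deposited table). That call does not hold when p is taken from the test statistic, whose 95% interval of the log2 fold runs from −0.24 to 3.41. In NLS the log2 fold was 1.09 (SE 1.21, q = 0.483 by the authors' deposited table), and the NLS minus DOX/E14 difference was −0.49 (95% interval −3.49 to 2.50, adjusted p = 0.900 with the SEs of the authors' tables).

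Crabp2 (chr3:87948666-87953376, plus strand), whose product hands retinoic acid to the receptors in the nucleus, had a high ratio in DOX/E14 that rests on a low noDox level. It stood at 0.308 RPKM in noDox and 6.53 RPKM in DOX/E14, and at 0.843 RPKM in NLS. The DOX/E14 value was 21.2 times that of noDox, a log2 fold of 4.41 with an SE of 1.24, narrower than the p-value implies, yet the q of 0.0746 by the authors' deposited table did not pass. With a pseudocount of 1 RPKM its log2 fold is 2.52, smaller in size than that of Dhrs3 (−2.78). With p taken from the test statistic Crabp2 does pass, the reverse of Crabp1. Crabp2 was not tested in the NLS table. Crabp1 was the higher of the pair in noDox, at 80.3% of their sum, and in NLS, at 76.5%, whereas Crabp2 was the higher in DOX/E14, at 63.4%.

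The gene for retinol uptake was close to silent. Stra6 (chr9:58063788-58153996, plus strand) stood at 0.166 RPKM in noDox, 0.367 RPKM in DOX/E14 and 0.0155 RPKM in NLS, and was not tested in either table. At these levels no spread is known, and nothing is drawn from the order of its values.

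Aldh1a2 (chr9:71215789-71296243, plus strand), the main retinoic acid synthesis enzyme gene of the early embryo, stood at 1.59 RPKM in noDox and 1.12 RPKM in DOX/E14. In the NLS table it stood at 1.63 RPKM in noDox and 0.501 RPKM in NLS. It was thus lowest in NLS, but neither log2 fold passed: −0.50 (SE 0.56, q = 0.286) in DOX/E14 and −1.70 (SE 1.05, q = 0.229) in NLS, both by the authors' deposited tables. The NLS minus DOX/E14 difference was −1.20 (95% interval −3.53 to 1.13, adjusted p = 0.591 with the SEs of the authors' tables). The other enzymes of its family were lower still in noDox. Aldh1a1 was listed at 0 and Aldh1a3 stood at 0.233 RPKM, and neither exceeded 0.279 RPKM in any group.

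Dhrs3 showed the largest change of the 9 genes that passed a test. It lies at chr4:144892827-144928209 (plus strand). Its enzyme returns retinaldehyde to retinol and so limits retinoic acid synthesis. Dhrs3 stood at 17.4 RPKM in noDox and 1.68 RPKM in DOX/E14, and in the NLS table at 17.9 RPKM in noDox and 10.3 RPKM in NLS. It was the second most abundant member in noDox, after Rarg, with NLS between the other groups. Dhrs3 fell in DOX/E14 by 10.4 times (log2 fold −3.37, SE 0.47, q = 0.00017 by the authors' deposited table). In NLS the log2 fold of −0.79 (SE 0.43) did not pass (q = 0.0816 by the authors' deposited table). The difference between the folds was 2.58 (95% interval 1.33 to 3.83) and passed (adjusted p = 0.00113, z from the SEs of the authors' tables), so Dhrs3 was lower in DOX/E14 than in NLS. It was the 1 member of the 5 compared whose difference was called. Such a difference was called in 13.0% of all 11905 genes, 9.77% with NLS higher and 3.18% with NLS lower.

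**Figure D3:**
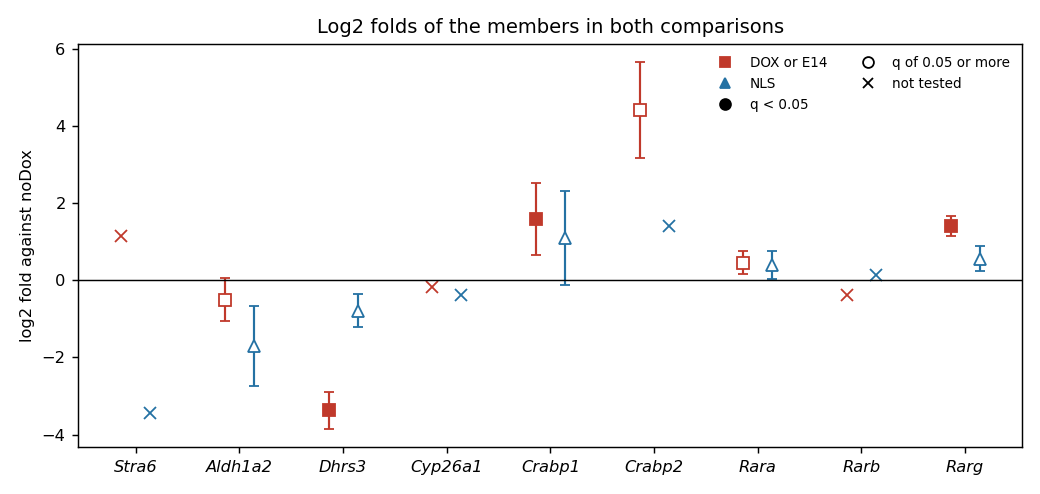
Log2 fold of each member against noDox in both comparisons, with bars of 1 SE from the deposited test statistic; filled symbols passed q < 0.05 and crosses were not tested. Rarg and Crabp1 rose and Dhrs3 fell in DOX/E14, and no member passed in NLS.

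Taken over the 9 genes, 6 were tested in the DOX/E14 table, of which 2 rose (Rarg and Crabp1), 1 fell (Dhrs3) and 3 did not pass. There, 55.5% of all 12380 tested genes were called, 27.2% higher and 28.3% lower, so 3 of 6 is close to the background. The median log2 fold of the 6 was 0.93, against 0.0076 over all tested genes. In the NLS comparison, 5 members were tested and 0 were called at q < 0.05, against 8.36% of all 12933 tested genes, 3.97% higher and 4.39% lower. Their median log2 fold was 0.40, against −0.0077 over all tested genes. At an unadjusted Cuffdiff p under 0.05 the count was 3 (Rarg, Aldh1a2 and Dhrs3), against 20.8% of all tested genes, and with p from the test statistic it was again 0. All 5 were among those tested in DOX/E14. Both comparisons share the noDox libraries, so these counts and medians are only set side by side. Between the comparisons, only the folds of single genes were tested. In RNA from a whole culture, fewer cells of a type and less RNA per cell cannot be told apart.

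The genes whose pattern was most like that of a member were found by distance between the log2 folds of both comparisons, over 3 groups and 11801 tested genes with a mean of at least 1 RPKM. Nearest to Rarg were Hells, a chromatin remodeller gene (36.8 RPKM in noDox, 98.2 RPKM in DOX/E14 and 56.2 RPKM in NLS, distance 0.016 log2 units), Atox1, a copper chaperone gene (0.019), and Exog, a mitochondrial nuclease gene (0.029). Nearest to Crabp1 were Jag1, a Notch ligand gene (2.70, 7.85 and 5.93 RPKM, distance 0.049) and Cobll1 (0.059). Nearest to Dhrs3 were Atp8b1, a lipid flippase gene (2.34, 0.229 and 1.45 RPKM, distance 0.065), 1700095A21Rik (0.077) and Mgat5, a glycosyltransferase gene (0.104). With so few groups many genes lie close to any pattern, and likeness says nothing of shared control.

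The wider pathway was followed in 87 further genes, of which 49 were tested in the DOX/E14 table. There 13 rose and 17 fell, 61.2% of those tested, again near the 55.5% of all genes. In the NLS comparison, 47 were tested, and 2 fell and 0 rose. That is 4.26% against the 8.36% of all genes, and 9 of the 47 had an unadjusted Cuffdiff p under 0.05, near the 20.8% of all genes. The median log2 fold of the tested genes was −0.28 in DOX/E14 and −0.15 in NLS.

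Upstream of the ligand, the calls in DOX/E14 are read against the 55.5% of all tested genes called there. Of 2 tested genes of retinol transport and storage, 1 rose and 1 did not pass in DOX/E14. Lrat, which stores retinol as ester, did not exceed 0.280 RPKM in any group. Of 9 tested genes of retinol and retinal oxidation, 1 rose, 1 fell and 7 did not pass in DOX/E14. Adh5, a glutathione-dependent formaldehyde dehydrogenase gene that can also act on retinol, rose from 73.3 to 174 RPKM, and Rdh11, a retinaldehyde reductase gene, fell from 26.6 to 19.0 RPKM, a call that ends with p from the test statistic. Rdh10, the main retinol dehydrogenase gene of the embryo, stood at 4.05 RPKM in noDox, 5.58 RPKM in DOX/E14 and 3.96 RPKM in NLS and did not pass in either table (q = 0.121 and 0.949 by the authors' deposited tables). In NLS 0 of 11 tested oxidation genes passed, with 2 at an unadjusted Cuffdiff p under 0.05, near the 20.8% of all genes. Cyp26b1 and Cyp26c1, the other retinoic acid hydroxylase genes, did not exceed 0.853 RPKM in any group and were not tested. Fabp5, whose product can carry retinoic acid to PPARD in place of the receptors, rose from 5.68 to 14.7 RPKM in DOX/E14 (log2 fold 1.38, SE 0.44). In NLS Fabp5 stood at 2.90 RPKM against 5.82 RPKM in noDox (q = 0.272 by the authors' deposited table).

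Partners and competitors of the receptors moved in both directions in DOX/E14, with 4 rises and 4 falls among 9 tested genes, where 27.2% of all tested genes rose and 28.3% fell. The largest fall was that of Nr2f2, an orphan receptor gene (COUP-TFII) that retinoic acid induces in many cells. Nr2f2 stood at 3.45 RPKM in noDox and 0.176 RPKM in DOX/E14 (log2 fold −4.29, SE 0.81). It also fell in NLS, from 3.54 to 1.49 RPKM (log2 fold −1.25, SE 0.51, q = 0.0233 by the authors' deposited table), a call that ends with p from the test statistic. Nr2f2 was 1 of the 2 pathway genes that passed there. Its relative Nr2f6 rose from 5.26 to 17.5 RPKM in DOX/E14. Nr2c1, an orphan receptor gene that can bind the same repeats, fell from 12.9 to 5.13 RPKM, and Nr2c2 fell while Nr6a1 rose, the Nr2c2 call ending with p from the test statistic. Ppard, at 9.54 RPKM in noDox and 6.47 RPKM in DOX/E14, did not pass (q = 0.157 by the authors' deposited table).

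Among genes of the corepressors and coactivators that the receptors recruit, 6 of 12 tested fell and 1 rose in DOX/E14, where 28.3% of all tested genes fell. Ncoa1, a p160 coactivator gene, fell most, from 21.9 to 3.53 RPKM (log2 fold −2.63, SE 0.28). It was the other gene that also fell in NLS, from 22.5 to 12.6 RPKM (log2 fold −0.84, SE 0.31, q = 0.00342 by the authors' deposited table), a call that likewise ends with p from the test statistic. Its relative Ncoa2 fell from 17.4 to 5.54 RPKM in DOX/E14, whereas Ncoa3 stood at 58.2 and 54.3 RPKM and did not pass. The corepressor gene Ncor1 fell from 65.1 to 34.8 RPKM. Nrip1, a ligand-dependent corepressor gene that retinoic acid induces, fell from 8.34 to 3.45 RPKM. Crebbp, an acetyltransferase gene, fell, and Hdac3, the deacetylase gene of the corepressor complex, rose, a call that ends with p from the test statistic. The 6 genes that fell thus include coactivators and corepressors.

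Genes known to be induced by retinoic acid moved in both directions in DOX/E14. Of 35 listed, 21 were not tested in DOX/E14, and among the 14 tested 4 rose, 7 fell and 3 did not pass, with a median log2 fold of −0.89. Over all tested genes, 27.2% rose and 28.3% fell. Cdx1, a caudal homeobox gene, was listed at 0 in noDox, with 1.41 RPKM in DOX/E14 and 0.134 RPKM in NLS. Wnt8a, a Wnt ligand gene of the early embryo, was listed at 0, 3.99 and 0.399 RPKM. Both rose in DOX/E14 (q = 0.00017 by the authors' deposited table), and no fold is given because noDox was at 0, which also leaves them without a finite test statistic. Bhlhe40 rose as well. Rarres1 fell from 1.72 to 0.209 RPKM (log2 fold −3.04, SE 1.32, q = 0.0488 by the authors' deposited table), and Meis2, Tshz1, Rec8, Tgm2, Nr2f2 and Nrip1 fell. The calls of Rarres1 and Tgm2 end with p from the test statistic. In NLS 1 of 13 tested fell, Nr2f2. Of 5 genes known to be repressed by retinoic acid, Fst rose from 0.647 to 6.62 RPKM and Fgf4 fell from 139 to 47.4 RPKM in DOX/E14, the other 2 tested did not pass, and in NLS 0 of 2 tested passed, both with an unadjusted Cuffdiff p under 0.05 (20.8% of all genes).

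**Figure D4:**
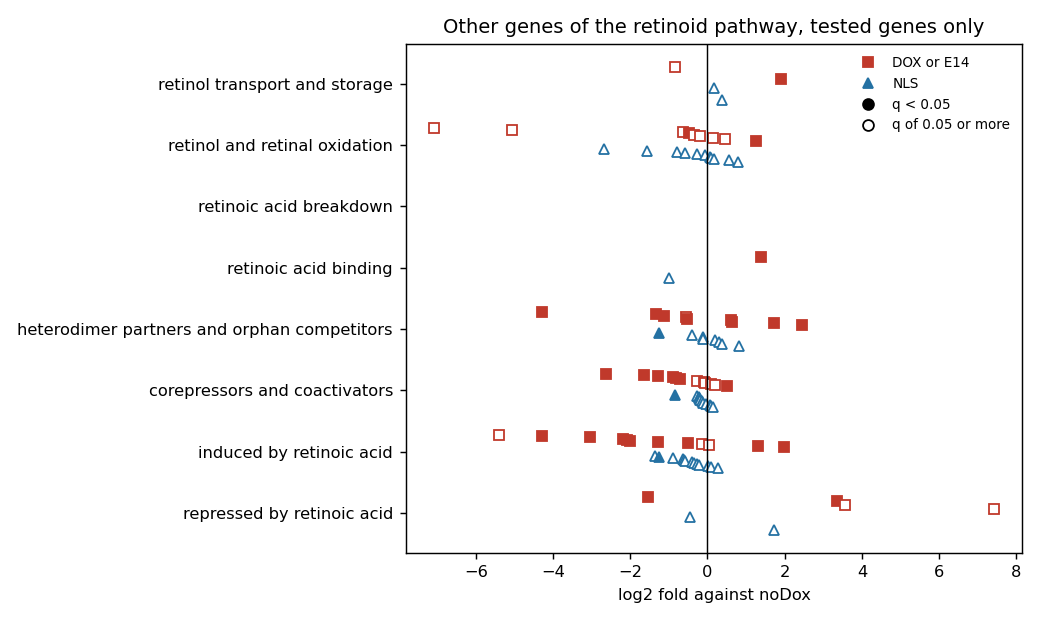
Log2 fold against noDox of each tested gene of the wider pathway with a finite fold, by list and comparison; filled symbols passed q < 0.05. In DOX/E14 filled symbols lie on both sides of 0 in most lists, and in NLS only Nr2f2 (in 2 lists) and Ncoa1 are filled.

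Some markers of cell state were called in DOX/E14, where 27.2% of all tested genes rose and 28.3% fell. In NLS 0 of those tested passed in each of the 5 marker lists, against 8.36% of all tested genes. All 3 tested neuroectoderm markers and 1 of 3 tested mesoderm markers there had an unadjusted Cuffdiff p under 0.05, against 20.8% of all genes. All 10 pluripotency markers stood at 1 RPKM or more in every group. Their summed level was 4463 RPKM in noDox, 1956 RPKM in DOX/E14 and 3693 RPKM in NLS. Dppa5a was the largest part of each sum (2555, 645 and 1939 RPKM). Pou5f1 stood at 501, 542 and 474 RPKM and did not pass in either comparison. Of the 10 pluripotency markers, 5 fell in DOX/E14 (Dppa5a, Nanog, Sox2, Esrrb and Zfp42), 2 rose (Sall4 and Utf1) and 3 did not pass. Nanog fell there from 431 to 69.3 RPKM. In the NLS comparison Nanog, at 442 RPKM in noDox and 287 RPKM in NLS, has no test result. The summed level of 8 neuroectoderm markers was 33.7 RPKM in noDox, 59.5 RPKM in DOX/E14 and 53.5 RPKM in NLS, with 3, 5 and 3 of them at 1 RPKM or more. Most of it was Tubb3 (28.9, 30.8 and 45.6 RPKM), which did not pass in either table. Nes, Sox1 and Pax6 rose in DOX/E14, 3 of 5 tested, while 0 of 3 tested passed in NLS. That of 8 mesoderm markers was 3.94, 29.0 and 10.1 RPKM, with 1, 3 and 3 at 1 RPKM or more. In DOX/E14 it was mostly Tcf15 (19.2 RPKM) and T (5.10 RPKM), which did not pass, while Eomes rose and Kdr fell. Sums of 8 markers each were 2.74, 14.3 and 5.07 RPKM for fibroblasts and feeder cells. Those for extraembryonic endoderm were 2.68, 5.41 and 3.43 RPKM. Of these markers, Col1a2 and Dab2 rose in DOX/E14. Col1a1, at 7.79 RPKM the largest part of the fibroblast sum there, did not pass. Lum and Afp were listed at 0 in every group, and Col1a2, Sox7, Ttr, Meox1, Mesp1 and Neurog2 at 0 in noDox. The part of these differences in the results for the retinoic acid genes was not tested.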

How the data were processed

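RNA from whole cells was sequenced after depletion of ribosomal RNA, per the labels' protocols. Reads were handled with bcl2fastq 2.17.1, TopHat and Cuffdiff on build mm10, per the submitters' processing notes; the annotation, the use of strand and the other versions are not given in the sources used here. The deposited tables hold RPKM, 1 value per group, a test statistic (a signed score), and a p-value and q-value per gene, all as the authors computed them, per the file headers. The deposited summary of folds was not used.

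From these, log2 folds (no pseudocount) and SEs (log2 fold over statistic) were computed with Python 3.11.15, pandas 2.3.3, NumPy 2.4.6 and SciPy 1.17.1. Where p was above its lowest value, it implied a z that was 1.41 (DOX/E14) and 1.42 (NLS) times the statistic (medians), so most SEs given are wider than those behind q. Differences between folds used a z with both SEs, a conservative choice since the shared noDox error cancels, with Benjamini-Hochberg adjustment over 11905 genes. The procedure was run on simulated data drawn with those same SEs, which cannot check the SEs themselves. Gene names on more than 1 line were left out, leaving 24275, and 27 lines held dates as names. Values of overlapping or near-identical genes are uncertain.

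Named genes are the 9 members, the called genes of the wider lists with values for the 4 largest folds per list and comparison, expressed partners of the receptors, and the 3 nearest genes by pattern. Blvrb, Syndig1, Top2b, Lrat, Rdh10, Ncoa3, the other Aldh1a and Cyp26 genes and the genes named in the closing section were added after their values were seen. Some items are withheld and not reported here, though they enter the counts. Members and lists were chosen with earlier results of these data known. Alternatives were a stricter q, a minimum fold, a minimum RPKM, p from the statistic, other SEs, pseudocounts, centring and the other noDox values.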

Additional observations from a re-analysis of the deposited data

Results flagged for a closer look

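Dhrs3 differed between the comparisons by the test of the difference itself. Its log2 fold against noDox was 2.58 higher in NLS than in DOX/E14 (Benjamini-Hochberg adjusted p = 0.00113, a two-sided z from the SEs of the authors' tables, since no exact test can be made from 1 value per group). The adjusted p lay between 0.000783 and 0.0248 over the alternatives tried for the SE, the gene filter and the centring. Dhrs3 was below noDox in both groups, each with 1 pooled value. The groups also differ in Ddx3y, at 11.1 RPKM in DOX/E14 and 0.311 RPKM in NLS. The cause was not tested.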

How the results depend on the processing

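No paired analysis was possible because the tables give 1 value per group, and for the same reason no library could be left out. Of the 87 wider pathway genes, the 2 called in NLS became 1 at q < 0.01 (Ncoa1), 1 where a log2 fold of 1 or more in size was also required (Nr2f2) and 0 with p from the test statistic. The other counts of called genes stayed within 1.5 times, though members swapped. Of the 30 wider genes called in DOX/E14, p from the statistic lost Rarres1, Rdh11, Rxrb, Hdac3, Nr2c2 and Tgm2, could not be had for Cdx1 and Wnt8a, and added Adh7, Hoxd4 and T, giving 25. Among members called in DOX/E14, Crabp1 was lost at q < 0.01 and was replaced by Crabp2 with p from the statistic; Rarg and Dhrs3 were called under all 4 alternatives. All 72 recomputed log2 folds of the members kept their sign. A pseudocount of 1 RPKM lowered the low genes most, Crabp2 in DOX/E14 from 4.41 to 2.52 and Stra6 in NLS from −3.45 to −0.20. Depth is unknown, so no limit of detection can be given for the members below 1 RPKM.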

Other observations

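Several genes of the retinol oxidation and retinoic acid response lists had large DOX/E14 folds, in both directions, that did not pass at q < 0.05. Dhrs9, a retinol dehydrogenase gene, stood at 2.23 RPKM in noDox and 0.0164 RPKM in DOX/E14 (log2 fold −7.09, SE 4.09, q = 0.307 by the authors' deposited table). In NLS it stood at 0.355 RPKM (log2 fold −2.69, SE 0.99, q = 0.0635 by the authors' deposited table). Adh7, an alcohol dehydrogenase gene, stood at 1.88 and 0.0558 RPKM in noDox and DOX/E14 (log2 fold −5.07, SE 1.77, q = 0.222 by the authors' deposited table). Hoxd4 stood at 1.54 and 0.0363 RPKM (log2 fold −5.41, SE 2.06, q = 0.219 by the authors' deposited table). T, the brachyury gene, stood at 0.0296 and 5.10 RPKM (log2 fold 7.43, SE 3.16), and Fgf8 at 0.131 and 1.54 RPKM (log2 fold 3.56, SE 3.07), both with q = 0.321 by the authors' deposited table. With p from the test statistic, Adh7, Hoxd4 and T pass.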
